A study of Mus musculus with 4 samples.

Results

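The genes described are the subunits of the proteasome and of the chaperonin that the array measures: every gene whose symbol is Psma, Psmb, Psmc or Psmd with a number, and Tcp1 and Cct2 to Cct8, without the immunoproteasome subunits Psmb8, Psmb9 and Psmb10. They are 44 of the 12394 genes with a probe set of their own, 35 of the proteasome and 9 of the chaperonin, read by 88 of 22690 probe sets. The rule uses names only and no measured value. Of the 44 genes, 42 gave signals above the floor for low values (43.0 units) on all 4 arrays, and Psma8 and Cct6b lay under it on every array.

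The samples were myogenic cells, the muscle stem cells and their progeny, taken without culture from C57BL/6 mice 8 to 12 weeks old whose hind-limb muscle had been injured by cardiotoxin (CTX), a venom toxin that kills muscle fibres and sets off their regrowth. All groups carried the injury, and they differ in the time since it: day 2, day 3, day 5 or day 14. Each day had 1 array, an Affymetrix mouse 430A array, so no comparison has a replicate check, no test was made, and no uninjured group is among the 4 arrays. The number of animals behind an array is unknown, and of the sorting the labels name the satellite cell antibody SM/C-2.6 without further markers. Signals are in units of MAS5 intensity, the brightness of a probe set over its mismatch probes, after the arrays were brought to one mean. A gene is said to have fallen or risen where its signal changed by at least 2-fold between the arrays compared.

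The proteasome is the protease that degrades proteins tagged with ubiquitin. Its 20S core is a barrel of outer alpha rings and inner beta rings with the active sites inside, and its 19S regulatory particle binds the ubiquitin chain, removes it, unfolds the protein with a ring of ATPases and feeds it into the core. The chaperonin, also called CCT or TRiC, is a double ring of paralogous subunits that folds newly made actin and tubulin with ATP. Dividing and growing cells use both machines heavily, and in adult muscle the proteasome is known for the breakdown of myofibrillar proteins during atrophy.

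Subunit signals were highest early and lowest late. On day 14 all 42 measured subunit genes had less signal than on day 2, as did 41.5% of the 7668 genes measured in that comparison. Of the 42, 23 fell by at least 2-fold and none rose by 2-fold, where 14.8% of all genes fell and 22.8% rose. The median log2 ratio of day 14 over day 2 was -1.04 for the subunit genes, a 2.05-fold lower signal, and 0.20 for all genes. With the arrays scaled to a common median instead, all 42 fell by 2-fold, as did 36.0% of all genes, whose median log2 ratio was then -0.57. A drop in the signal of a bulk sample can come from fewer cells of a type or from less RNA per cell, and these cannot be told apart here. The subunit genes also moved together: the SD of the day 14 over day 2 log2 ratio was 0.40 among them and 1.27 among all genes. Between probe sets that read the same gene the SD was 0.55 for this comparison, taken over 1969 genes of any signal above the floor. It is no measure of error between arrays. Of the 42 subunit genes 38 were lower by more than that SD, against 25.3% of all genes. Most subunit genes are bright, and 39 had at least 1000 units on day 2. Of the 857 genes with a mean signal of at least 1000 units, 20.1% were lower by 2-fold on day 14 than on day 2, and their median log2 ratio was -0.28. Below 0 at any size were 562 of the 857, a larger part than among all genes.

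**Figure D1:**
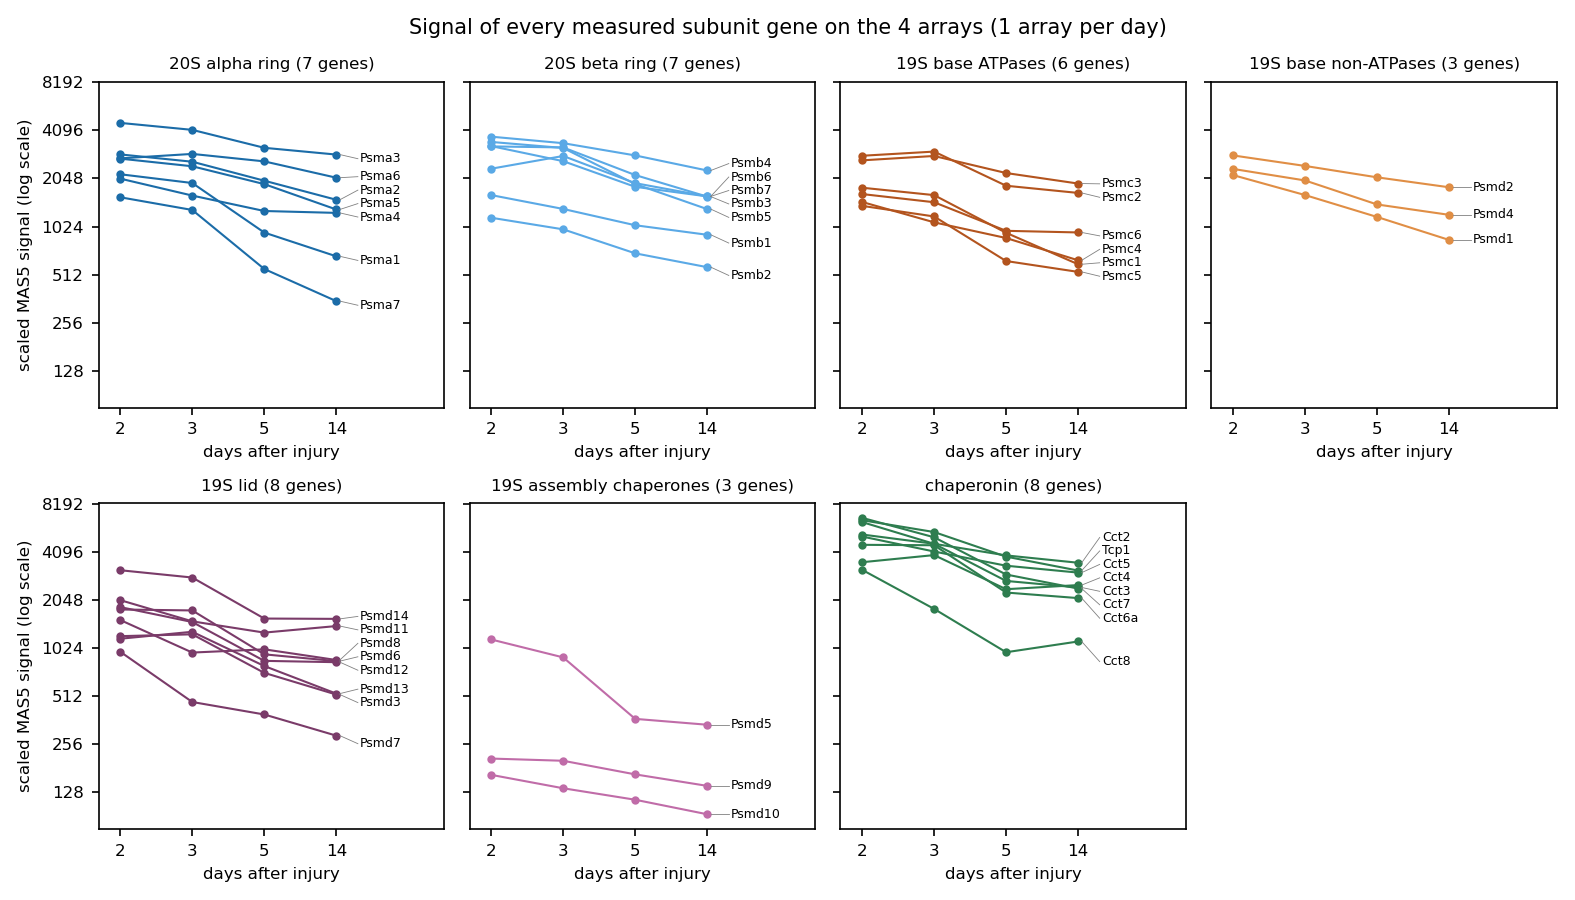
Scaled MAS5 signal (log axis) of each of the 42 measured subunit genes on days 2, 3, 5 and 14 after injury, 1 array per day, in 7 panels by place in the complex; each line is 1 gene. The lines run down to the right in every panel, and 41 of 42 genes had both late arrays below both early ones (32 on the values as deposited).

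The order in time was shared as well. In 32 of the 42 genes the signal was lower at each later day, against 14.4% of all genes, and in 41 of 42 the signals of days 5 and 14 both lay below those of days 2 and 3, against 29.1% of all genes. Psmd8, a lid subunit, was the exception. On the values as deposited these counts were 30 and 32, and with a common median 40 and 42. The highest of the 4 signals was on day 2 in 35 genes and on day 3 in the other 7, namely Psma6, Psmb7, Psmc2, Psmc3, Psmd3, Psmd13 and Cct4. A highest signal on day 3 depended on the scaling, with 1 such gene on the values as deposited, none with a common median and 10 after quantile normalization. In Psmc2 and Cct4 a second bright probe set was lower on day 3 than on day 2, with log2 ratios of -0.21 and -0.30. All measured probe sets of Psma6 and Psmd13 were higher on day 3. The lowest was on day 14 in 39 genes and on day 5 in Psmd11, Cct4 and Cct8.

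As a percentage of the day 2 signal, the median subunit gene stood at 86.7% on day 3, 59.9% on day 5 and 48.7% on day 14. The drop between days 3 and 5 made up 54.5% of the summed log2 decline over the 42 genes, that between days 2 and 3 made up 20.9%, and that between days 5 and 14 made up 24.6%. By gene, day 5 against day 3 was the largest of the 3 steps in 23 of 34 proteasome genes and 6 of 8 chaperonin genes. The order of the steps changed with the scaling: on the values as deposited the shares were 39.9% at day 3 against day 2, 25.9% at day 5 against day 3 and 34.2% at day 14 against day 5, and with a common median they were 38.1%, 42.6% and 19.2%. Day 5 against day 3 was then the largest step in 11 genes as deposited and in 21 with a common median, against 29 here.

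For day 3 against day 2 the median log2 ratio of the subunit genes was -0.21, with 35 of 42 below 0, against 44.6% of all genes. Among the 857 genes with a mean signal of at least 1000 units, 435 were below 0 and the median was -0.0096. Psmd7 was the 1 subunit gene that fell by 2-fold, a call lost under quantile normalization, and none rose by 2-fold, where 1.8% of 6991 genes fell and 6.69% rose. At 1.5-fold 3 of 42 were lower, against 9.1% of all genes. For most single genes this step is within the spread between probe sets of a gene (SD 0.36 on the log2 scale): 9 of 42 subunit genes were lower by more than that, against 19.5% of all genes.

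For day 5 against day 3 the median was -0.52, with 41 of 42 genes below 0, against 46.5% of all genes. Among the 857 genes with a mean signal of at least 1000 units, 535 were below 0 and the median was -0.16. The genes that fell by 2-fold were Psmd5, Psma7 and Psma1 (3 of 42), against 5.97% of 7523 genes that fell and 11.6% that rose. On the values as deposited the median was -0.22, with 32 of 42 below 0, and none of the 34 proteasome genes fell in this step. With a common median 9 of them did. At 1.5-fold, 18 of 42 subunit genes were lower, against 17.1% of all genes, and 28 were lower by more than the SD between probe sets (0.37), against 26.1%. For day 14 against day 5 the median was -0.22, with 39 of 42 below 0, against 49.1% of all genes. Among the 857 genes with a mean signal of at least 1000 units, 545 were below 0 and the median was -0.13. No subunit gene changed by 2-fold, against 3.1% of 7709 genes that fell and 4.81% that rose. Psma7 and Psmc1 were lower by 1.5-fold in this last step, and 10.3% of all genes were.

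**Figure D2:**
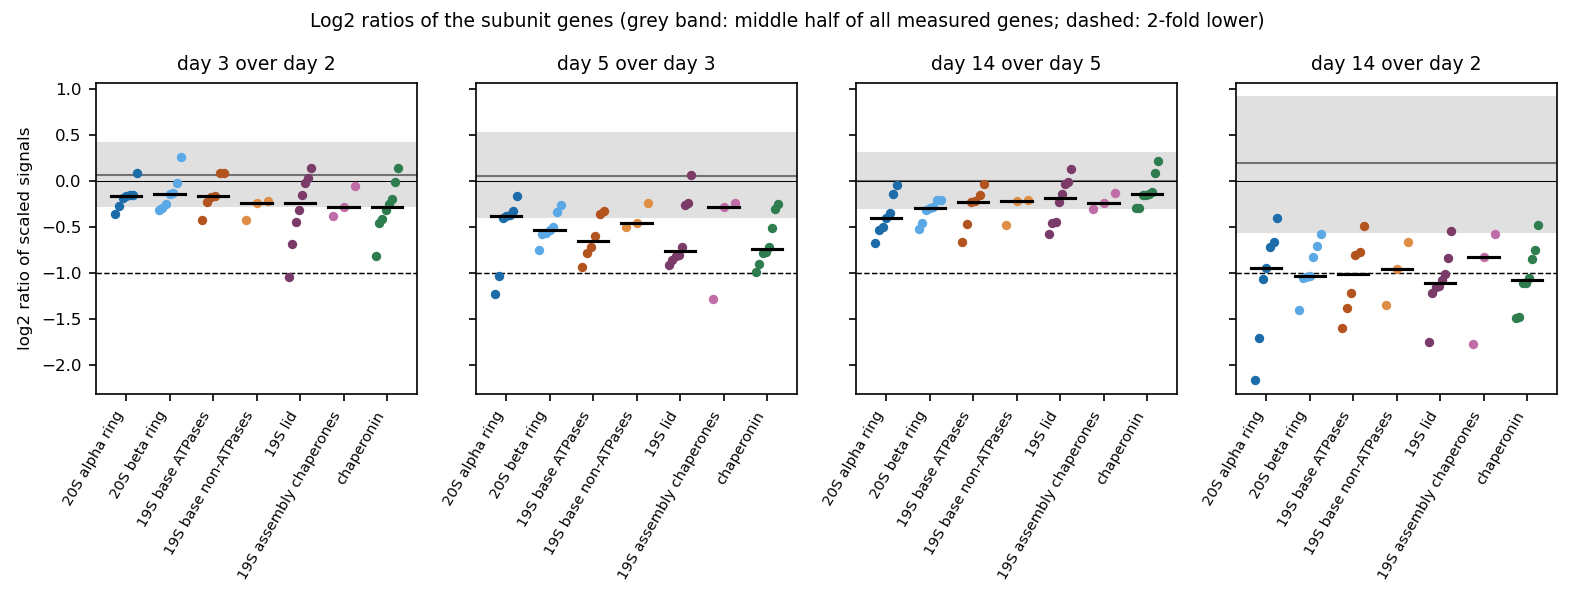
Log2 ratio of the later over the earlier day for every measured subunit gene (points), by place in the complex with group medians (black bars), against the middle 50% (grey band) and the median (grey line) of all measured genes; the dashed line marks 2-fold lower. The medians of the subunit genes are -0.21, -0.52 and -0.22 over the successive steps and -1.04 between the last array and the first.

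In their source and strain fields the labels of days 5 and 2 share one wording and those of days 14 and 3 another. The successive steps and day 14 against day 2 each set an array of one wording against one of the other, so the ratios within each wording were also read. Day 5 against day 2 had a median log2 ratio of -0.74 over the subunit genes, and 9 of 42 fell by 2-fold, against 11.4% of all genes, and none rose, against 19.8%. Day 14 against day 3 had a median of -0.79, and 12 of 42 fell by 2-fold, against 11.5% of all genes, and none rose, against 16.3%. In both, all 42 subunit genes were below 0, where 42.6% and 45.0% of all genes were. Of the 857 genes with a mean signal of at least 1000 units, 534 and 553 were below 0, with medians of -0.20 and -0.27.

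The arrays also differed in other ways. The share of probe sets above the floor was 45.0%, 49.5%, 52.0% and 53.5% in day order. For Gapdh the probe set at the 3' end exceeded that at the 5' end by 2.17, 1.88, 2.87 and 2.84 times on days 2, 3, 5 and 14, and for Actb, read in the same way as a gauge of RNA length, by 1.80, 2.20, 2.19 and 2.14 times. The label of the cells fits their markers: at least 9 of 10 myogenic markers were above the floor on every array, and their summed signal was 8479 at day 2, 15897 at day 3, 13736 at day 5 and 12931 at day 14. Markers of other cells were higher on the later arrays. Summed macrophage and myeloid markers were 329, 1194, 3777 and 3217 units on days 2, 3, 5 and 14, with 4, 7, 9 and 10 of 12 genes above the floor. Summed fibroblast markers were 292, 624, 3192 and 7815, with 2, 3, 5 and 6 of 10 above the floor, and summed mural cell markers, which include Acta2, were 833, 4003, 10318 and 9877, with 1, 5, 5 and 6 of 6. Single genes made up much of these sums. On days 5 and 14 Lyz1 had 1980 and 1438 units, Dpt, a fibroblast marker, 1430 and 5877, and Acta2 7744 and 6176. Of 6 fibroblast markers measured on day 14 against day 5, 4 were higher, only Dpt by 2-fold, and 2 were lower. Endothelial markers summed to 78.9, 113, 185 and 526, with 0, 0, 1 and 3 of 7 above the floor. No lymphocyte marker (of 7) and no erythroid marker (of 2) was above the floor on any array. The part of other cells and of RNA length in the subunit signals was not tested.

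Promoter sequences of the members were taken from RefSeq (GRCm38.p6), each running 250 bases before to 50 bases after the start of the gene, and 36 of the 44 genes had an entry. Cct4, Psma8, Psmb1, Psmb2, Psmb7, Psmc3, Psmd3 and Psmd7 had none. Since the subunit genes moved together, 7 promoters are printed: those of Psma7 and Psmd5, which had the largest falls among the core genes and among the Psmd genes, those of the catalytic subunits Psmb5 and Psmb6, that of the deubiquitinase Psmd14, and those of the chaperonin subunits Tcp1 and Cct6a. Capitals mark matches, on either strand, to any of 4 motifs: the antioxidant response element core as TGACNNNGC or TGAGNNNGC, bound by the CNC factors Nfe2l1 and Nfe2l2, the palindrome of nuclear respiratory factor 1, and the ETS core CCGGAAG. No marked matches overlap one another. Psma7 lies at chr2:180042415-180042714 (minus strand), Psmd5 at chr2:34870913-34871212 (minus strand), Psmb5 at chr14:54617946-54618245 (minus strand), Psmb6 at chr11:70525107-70525406 (plus strand), Psmd14 at chr2:61711444-61711743 (plus strand), Tcp1 at chr17:12916079-12916378 (plus strand) and Cct6a at chr5:129787106-129787405 (plus strand).
Psma7: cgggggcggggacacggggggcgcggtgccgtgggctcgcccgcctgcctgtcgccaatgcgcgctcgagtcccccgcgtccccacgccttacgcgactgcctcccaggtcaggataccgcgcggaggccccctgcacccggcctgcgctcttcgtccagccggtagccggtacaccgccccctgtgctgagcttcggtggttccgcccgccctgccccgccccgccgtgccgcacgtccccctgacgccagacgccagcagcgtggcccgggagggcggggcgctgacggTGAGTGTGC
Psmd5: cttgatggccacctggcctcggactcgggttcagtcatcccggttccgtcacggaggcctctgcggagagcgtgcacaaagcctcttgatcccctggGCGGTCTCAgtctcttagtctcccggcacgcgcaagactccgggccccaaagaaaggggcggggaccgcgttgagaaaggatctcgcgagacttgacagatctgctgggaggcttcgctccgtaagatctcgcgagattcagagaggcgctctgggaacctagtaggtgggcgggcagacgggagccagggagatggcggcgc
Psmb5: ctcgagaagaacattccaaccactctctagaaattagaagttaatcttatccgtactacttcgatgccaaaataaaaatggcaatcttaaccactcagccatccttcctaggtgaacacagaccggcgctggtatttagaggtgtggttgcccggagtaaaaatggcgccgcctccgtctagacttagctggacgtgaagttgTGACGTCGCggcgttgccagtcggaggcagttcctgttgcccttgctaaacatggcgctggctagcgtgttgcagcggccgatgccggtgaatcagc
Psmb6: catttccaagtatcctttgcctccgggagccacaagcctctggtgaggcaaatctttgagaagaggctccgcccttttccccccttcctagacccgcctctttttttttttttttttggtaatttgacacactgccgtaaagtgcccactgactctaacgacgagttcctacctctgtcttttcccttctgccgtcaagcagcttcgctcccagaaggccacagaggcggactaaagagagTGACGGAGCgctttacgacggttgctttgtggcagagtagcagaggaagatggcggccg
Psmd14: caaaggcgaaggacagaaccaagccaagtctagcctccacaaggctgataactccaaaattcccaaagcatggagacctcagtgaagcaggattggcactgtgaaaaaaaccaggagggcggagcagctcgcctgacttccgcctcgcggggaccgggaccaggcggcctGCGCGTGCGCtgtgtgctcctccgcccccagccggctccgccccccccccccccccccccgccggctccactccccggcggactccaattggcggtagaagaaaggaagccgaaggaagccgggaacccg
Tcp1: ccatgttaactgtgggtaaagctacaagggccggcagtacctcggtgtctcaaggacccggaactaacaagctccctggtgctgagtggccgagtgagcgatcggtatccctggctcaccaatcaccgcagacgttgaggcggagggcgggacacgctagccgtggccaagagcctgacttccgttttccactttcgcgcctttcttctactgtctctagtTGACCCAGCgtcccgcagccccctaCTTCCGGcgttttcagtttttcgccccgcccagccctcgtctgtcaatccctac
Cct6a: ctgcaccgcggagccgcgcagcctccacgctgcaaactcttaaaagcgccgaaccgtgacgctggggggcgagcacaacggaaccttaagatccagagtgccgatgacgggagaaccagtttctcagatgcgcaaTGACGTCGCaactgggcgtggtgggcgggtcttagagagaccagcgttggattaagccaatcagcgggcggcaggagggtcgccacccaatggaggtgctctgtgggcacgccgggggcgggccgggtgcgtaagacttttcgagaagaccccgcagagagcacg

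Psmb5 and Cct6a held the same match, TGACGTCGC, beginning 47 bases before the start in Psmb5 and 115 bases before it in Cct6a. Psmb6 had TGACGGAGC beginning 9 bases before the start, and Tcp1 had TGACCCAGC at 29 bases and the reverse ETS core CTTCCGG at 4 bases before it. Psmd5 had the reverse form GCGGTCTCA at 153 bases and Psmd14 the reverse form GCGCGTGCGC at 80 bases before the start, while the match of Psma7, TGAGTGTGC, began 41 bases after it.

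Among the 36 members with an entry, TGACNNNGC was found in 8 (22.2%), against 16.8% of the 6455 measured genes with an entry and 12.4% of all 32851 promoters. TGAGNNNGC was found in 12 (33.3%), against 23.4% of measured genes and 17.6% of all promoters. The nuclear respiratory factor palindrome was in 8 members (22.2%), against 12.7% and 4.60%, and the ETS core in 14 (38.9%), against 21.6% and 8.86%. At least 1 of these 4 motifs was present in 31 of the 36 (86.1%), against 55.8% of measured genes and 36.4% of all promoters. Of the 8 motifs searched, these 4 exceeded their share of measured genes by most in the members. Their pooled share is therefore no separate evidence. The 36 include Cct6b, which lay under the floor on every array. A further 4 motifs, not in capitals, were counted in the same windows on both strands. The CCAAT box was in 16 members (44.4%), against 43.2% of measured genes and 37.4% of all promoters, and the GC box GGGCGG in 25 (69.4%), against 71.6% and 35.7%. The heat shock pairs GAANNTTC and TTCNNGAA were in 2 and 3 members, against 6.94% and 8.35% of measured genes and 7.86% and 8.52% of all promoters. GC boxes can overlap each other and the other motifs. Some genes have several promoters, and a gene was counted where any of them held the motif. A match is a run of letters and was not tested for binding.

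In the outer alpha rings, which gate the core entrance, 3 of 7 measured genes fell by 2-fold on day 14 against day 2. Over all genes 14.8% fell, and 20.1% of those with a mean signal of at least 1000 units. The median log2 ratio of the alpha ring genes was -0.94. Psma7 had the largest fall of all subunit genes. Its signal was 1562 units at day 2, 1301 at day 3, 555 at day 5 and 349 at day 14, a 4.47-fold lower signal on day 14 than on day 2, and its second probe set had a log2 ratio of -1.80 against -2.16 for the first. Psma1 fell by 3.27-fold, with 2177, 1919, 939 and 667 units on days 2, 3, 5 and 14. In both the largest step was between days 3 and 5, 2.34-fold in Psma7 and 2.04-fold in Psma1. Psma5 fell by 2.08-fold, and its larger steps were between days 3 and 5 and between days 5 and 14. Psma6 had the smallest difference of all subunit genes, with 2737 units at day 2, 2919 at day 3, 2622 at day 5 and 2071 at day 14, 1.32-fold lower on day 14 than on day 2. Its 3 measured probe sets disagreed, with log2 ratios between -1.02 and 0.07. Psma2 (1.92-fold), Psma4 (1.64-fold) and Psma3 (1.58-fold) were lower on day 14 without reaching 2-fold. Psma8, known as the testis form of Psma7, had 1.20, 1.70, 1.38 and 5.08 units, all under the floor.

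In the inner beta rings 4 of 7 genes fell by 2-fold, against 14.8% of all genes, and the median was -1.03. Of these subunits 3 carry the active sites. Psmb5, the chymotrypsin-like subunit, had 3469.6 units at day 2, 3180.0 at day 3, 1891 at day 5 and 1317 at day 14, a 2.63-fold fall on day 14 against day 2 and the largest of the ring. Psmb6, the caspase-like subunit, had 3268, 2629.6, 1816 and 1582 units on days 2, 3, 5 and 14 and fell by 2.07-fold. Psmb7, the trypsin-like subunit, had 2358 units at day 2, 2834 at day 3, 1915 at day 5 and 1582 at day 14, and at 1.49-fold lower on day 14 than on day 2 it had the smallest difference of the ring. Its log2 ratio of 0.26 for day 3 over day 2 is within the spread between probe sets of a gene, and with a common median it was -0.23. Against its own day 3 signal Psmb7 was 1.79-fold lower on day 14, where Psmb5 was 2.41-fold and Psmb6 1.66-fold lower. Each of the 3 genes was read by a single probe set. The structural subunits Psmb3 (2.06-fold) and Psmb2 (2.04-fold) fell, and Psmb1 (1.77-fold) and Psmb4 (1.63-fold) were lower without reaching 2-fold. A second probe set of Psmb4 had a log2 ratio of -1.25, and one of Psmb1, with a highest signal of 51.6 units, had 0.26.

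Of the 3 immunoproteasome subunits, which replace the catalytic subunits in immune cells and under interferon, 2 rose on day 14 against day 2 and none fell. Over all genes 22.8% rose and 14.8% fell. Psmb8, which takes the place of Psmb5, had 14.7 units at day 2, 49.2 at day 3, 198 at day 5 and 108 at day 14, and rose by 4.02-fold on day 5 against day 3. Psmb9, the counterpart of Psmb6, had 21.7, 63.3, 133 and 97.3 units and rose by 2.11-fold on day 5 against day 3. As the day 2 signals of both were under the floor, their rise on day 14 against day 2 is a bound, at least 2.50-fold in Psmb8 and at least 2.26-fold in Psmb9. Psmb10, the counterpart of Psmb7, had 183, 282, 240.0 and 148 units on days 2, 3, 5 and 14 and did not change by 2-fold in any step. Like Psmb8 and Psmb9, the summed macrophage and myeloid markers given above were highest on day 5. Of 10 such markers measured on day 14 against day 5, 7 were lower on day 14 and 3 (Cd68, Ctss and Fcgr3) were higher. The part of macrophage and myeloid cells in the immunoproteasome signals was not tested.

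The ATPases of the 19S base form the ring that unfolds substrates, and 3 of 6 fell by 2-fold, against 14.8% of all genes. The median of the ATPases was -1.01. Psmc1, whose tail helps to open the gate of the core, had the largest fall: 1793 units at day 2, 1611 at day 3, 936 at day 5 and 594 at day 14, 3.02-fold lower on day 14 than on day 2. Psmc3, another gate-opening ATPase, had the smallest difference, with 2660.5, 2834, 2216 and 1904 units on days 2, 3, 5 and 14 and a 1.40-fold lower signal on day 14 than on day 2. Psmc5 fell by 2.59-fold and Psmc4 by 2.32-fold, and in Psmc4 the second probe set had a log2 ratio of only -0.36. Psmc6 (1.74-fold) and Psmc2 (1.71-fold) were lower without reaching 2-fold. The second probe set of Psmc2, with 2791 units on day 2, had a log2 ratio of -1.16, past the 2-fold line.

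The non-ATPase subunits of the base are the scaffolds Psmd1 and Psmd2 and the ubiquitin receptor Psmd4. Psmd1 fell by 2.55-fold, with 2151 units at day 2, 1613 at day 3, 1176 at day 5 and 845 at day 14. On the scaled values its decline was 1.33-fold, 1.37-fold and 1.39-fold over the successive steps. That evenness depends on the scaling factors (0.997, 1.13, 0.917 and 0.976 for days 2, 3, 5 and 14). Psmd2, which docks shuttle proteins, had 2857, 2455, 2083 and 1805 units on days 2, 3, 5 and 14 and was 1.58-fold lower on day 14 than on day 2. Psmd4 had 2351, 1991, 1409 and 1213 units on the same days and was 1.94-fold lower, just under the 2-fold line. The median of the 3 genes was -0.96.

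The lid, which holds the deubiquitinase that strips the chain from the substrate, had the lowest median of the subunit groups (-1.11). Of its 8 genes 6 fell by 2-fold, against 14.8% of all genes. Psmd14 is that deubiquitinase, and its signal was 3146 units at day 2, 2832 at day 3, 1567 at day 5 and 1559.9 at day 14. It was 1.81-fold lower on day 5 than on day 3 and level between days 5 and 14. Psmd7, its partner in the lid, had 971, 470.3, 393 and 289.5 units on days 2, 3, 5 and 14, so that its largest step came first, a 2.06-fold fall on day 3 against day 2. On day 14 it was 3.35-fold lower than on day 2, the largest fall in the lid. A second probe set of Psmd7 had a log2 ratio of 0.18 for this comparison, but its highest signal was 48.8 units, close to the floor.

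Psmd11, a clamp between the regulatory particle and the core, had the smallest difference in the lid: 2044 units at day 2, 1505 at day 3, 1279 at day 5 and 1406 at day 14, 1.45-fold lower on day 14 than on day 2. Its other probe sets gave log2 ratios down to -1.40. The scaffold subunits Psmd3 (2.32-fold), Psmd12 (2.21-fold), Psmd13 (2.21-fold) and Psmd6 (2.11-fold) fell. In these 4 genes day 5 against day 3 was the largest step of the scaled values, between 1.64-fold in Psmd13 and 1.88-fold in Psmd6. Psmd8, with 1534, 959.5, 1005 and 862 units on days 2, 3, 5 and 14, was 1.78-fold lower on day 14 than on day 2, and most of that was in place on day 3.

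Psmd5, Psmd9 and Psmd10 (gankyrin) are chaperones that assemble the 19S base and are absent from the finished particle. Psmd5 had 1159 units at day 2, 895 at day 3, 369 at day 5 and 339 at day 14. It fell by 2.43-fold on day 5 against day 3, the largest fall of any subunit gene in that step, and by 3.42-fold on day 14 against day 2. Psmd9 had the smallest difference of the group, with 208, 201, 166 and 140.3 units on days 2, 3, 5 and 14, 1.48-fold lower on day 14 than on day 2. A second probe set of Psmd9, with a highest signal of 57.4 units, had a log2 ratio of 0.42. Psmd10 had 164, 136, 115 and 93.2 units on the same days and was 1.77-fold lower on day 14 than on day 2. Of the measured subunit genes, Psmd9 and Psmd10 lie closest to the floor.

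**Figure D3:**
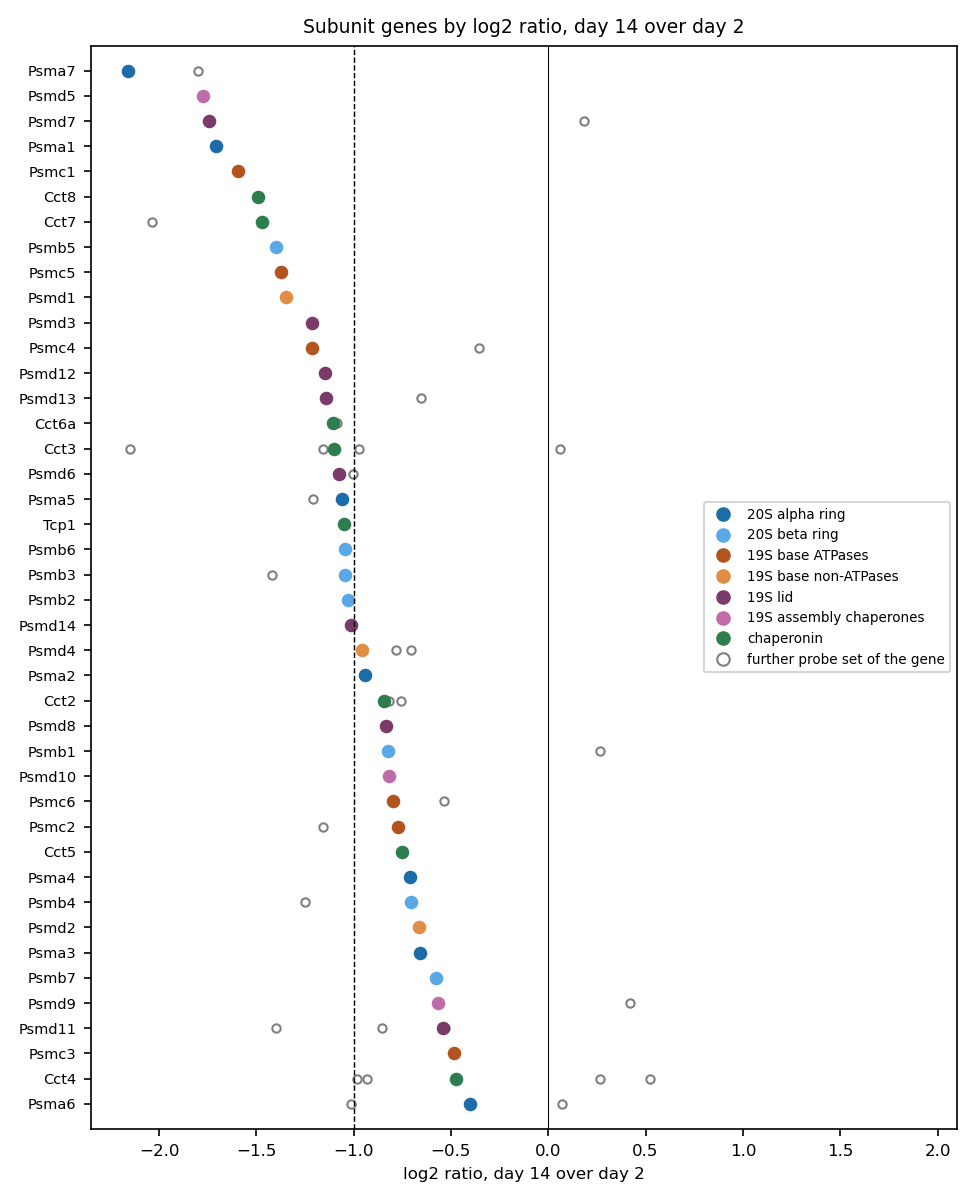
Log2 ratio of day 14 over day 2 for each of the 42 measured subunit genes, ordered by size and coloured by place in the complex (filled points), with their further measured probe sets (open points); the dashed line marks 2-fold. All filled points lie between -2.16 (Psma7) and -0.40 (Psma6), and 7 open points lie above 0.

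In the chaperonin 5 of 8 measured genes fell by 2-fold on day 14 against day 2, where 14.8% of all genes did. The chaperonin median was -1.08, against -1.02 in the proteasome. Tcp1, the alpha subunit that gave the complex its name, had 6474 units at day 2, 5459 at day 3, 3828 at day 5 and 3131 at day 14 and fell by 2.07-fold. Cct8 had the largest fall, with 3166, 1802, 964 and 1126 units on days 2, 3, 5 and 14, 2.81-fold lower on day 14 than on day 2 and 3.28-fold lower on day 5 than on day 2. Cct7 fell by 2.77-fold, with 6699.6, 5061, 2958 and 2415 units on days 2, 3, 5 and 14. Its second probe set had a log2 ratio of -2.03, against -1.47 for the first.

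Cct6a had 4538, 4511, 2281 and 2105 units on days 2, 3, 5 and 14 and fell by 2.16-fold on day 14 against day 2. Its level signal over the first 2 arrays depends on the scaling factor of the day 3 array (1.13). The second probe set of Cct6a had a log2 ratio of -0.23 for day 3 over day 2. Cct3 fell by 2.15-fold, and its 5 measured probe sets spanned log2 ratios between -2.15 and 0.06. Cct4 had the smallest difference of the ring, 1.39-fold lower on day 14 than on day 2. Its signal was 3531, 3914, 2393 and 2539 units on days 2, 3, 5 and 14. Of its 5 measured probe sets 2 were above 0, with highest signals of only 371 and 92.1 units. Another, with 3924 units on day 2, had a log2 ratio of -0.93 for day 14 over day 2, and the last had -0.98. Cct2 (1.80-fold) and Cct5 (1.68-fold) were lower without reaching 2-fold. All 8 genes were lower on day 5 than on day 3 (median -0.74), and none changed by 2-fold on day 14 against day 5 (median -0.14). Genes with a mean signal of at least 1000 units had medians of -0.16 and -0.13 in these steps. Cct6b, known as a testis form, had 1.69, 3.17, 1.38 and 10.6 units, all under the floor.

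In the alpha rings the percentage of the day 2 signal left on day 14 was between 22.4% and 75.7%, in the beta rings between 38.0% and 67.1%, in the ATPase ring between 33.2% and 71.6%, and in the chaperonin between 35.6% and 71.9%. The SD among the subunit genes (0.40 on the log2 scale) is smaller than that between probe sets of one gene (0.55). The latter covers genes of any signal above the floor and is no measure of error in these mostly brighter genes. With 1 array per day, these ranges do not show that the subunits of a ring differ from one another. Counted by size, 23 genes fell by 2-fold or more on day 14 against day 2, 36 were lower by at least 1.5-fold (against 24.3% of all genes), 13 were lower by 1.5-fold to 2-fold, and 6 by less than 1.5-fold. In 9 genes the log2 ratio was within 0.1 of the 2-fold line, so the count depends on where the line is drawn.

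Probe sets gave a check within the arrays. Of the 73 probe sets of subunit genes measured on day 14 or day 2, 66 had a ratio below 0, and of the 31 that were not used to represent their gene, 24 did. The 7 above 0 belonged to Cct3, Cct4, Psma6, Psmb1, Psmd7 and Psmd9, and their highest signals were between 48.8 and 371 units. The probe sets that represent these genes reached at least 208 units. As these were chosen for the highest mean log2 signal of their gene, the dimmer signal of the others follows from that choice. In 14 of the 20 genes with several measured probe sets all of them had the same sign. The other subunit genes had at most 1 measured probe set, so no such check was possible in them. The same counts over the probe sets of all genes are not given here. Whether this agreement is more than usual on these arrays is therefore not shown.

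Some genes that activate, assemble or serve the proteasome fell on day 14 against day 2, where 14.8% of all genes fell and 22.8% rose. Psme3, the nuclear activator PA28 gamma, had 1064 units at day 2, 844 at day 3, 296 at day 5 and 227 at day 14 and fell by 4.70-fold, although its second probe set had a log2 ratio of -0.63. It was the 1 of 4 activator and inhibitor genes that fell, and none rose. Psme1, a subunit of the interferon-induced activator PA28, had 368, 485, 673 and 451 units on days 2, 3, 5 and 14. Of 6 assembly factors and further 19S parts 2 fell, and both encode partners of the dimer that assembles the alpha ring. Psmg1 had 899, 593, 420.4 and 303 units (2.97-fold lower on day 14 than on day 2), and Psmg2 had 431, 426, 198 and 195 units (2.21-fold lower), with a second probe set at a log2 ratio of -0.65. The maturation factor Pomp was 1.98-fold lower, with 1024, 1158, 699 and 517 units.

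Of 8 proteasome-bound and shuttle proteins 3 fell on day 14 against day 2 and none rose, against 14.8% and 22.8% of all genes. Uchl5, a deubiquitinase of the 19S particle, had 977, 693, 299 and 223 units on days 2, 3, 5 and 14 and fell by 4.38-fold. Usp14, the other deubiquitinase that binds it reversibly, had 766, 512, 310.3 and 217 units and fell by 3.53-fold, with log2 ratios between -1.82 and -0.25 over its 3 measured probe sets. The shuttle protein Rad23b had 1479, 859, 531 and 397 units and fell by 3.72-fold, but its second measured probe set had a log2 ratio of 0.04. Among p97, the segregase that extracts ubiquitin-tagged proteins from complexes and membranes, and its cofactors 2 of 7 genes fell, Nploc4 by 2.44-fold and Faf1 by 2.02-fold, where a second probe set of Faf1 had a log2 ratio of -0.27. The gene of p97 itself, Vcp, had 2579, 2403, 2302 and 2259.6 units on days 2, 3, 5 and 14, a log2 ratio of -0.19 for day 14 over day 2, and its second probe set had 0.65.

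Of 6 measured genes that control proteasome transcription, 2 rose on day 14 against day 2 and none fell, against 22.8% and 14.8% of all genes. Ngly1, the glycanase that processes Nfe2l1 into its active form, had 164 units at day 2, 301 at day 3, 510.1 at day 5 and 626 at day 14 and rose by 3.81-fold. Nfya, a subunit of the factor that binds CCAAT boxes, had 47.7, 55.3, 134 and 122 units and rose by 2.55-fold, with its early signals close to the floor. Nfe2l1 itself, the transcription factor that drives proteasome genes when the proteasome is short, had 153, 188, 299 and 268 units, 1.75-fold higher on day 14 than on day 2. Nfe2l2, Nfyb and Nfyc had log2 ratios of -0.06, -0.14 and -0.34 for day 14 over day 2. Of the 6 genes 3 were thus above 0 and 3 below. All these values are mRNA levels, and protein processing was not measured.

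**Figure D4:**
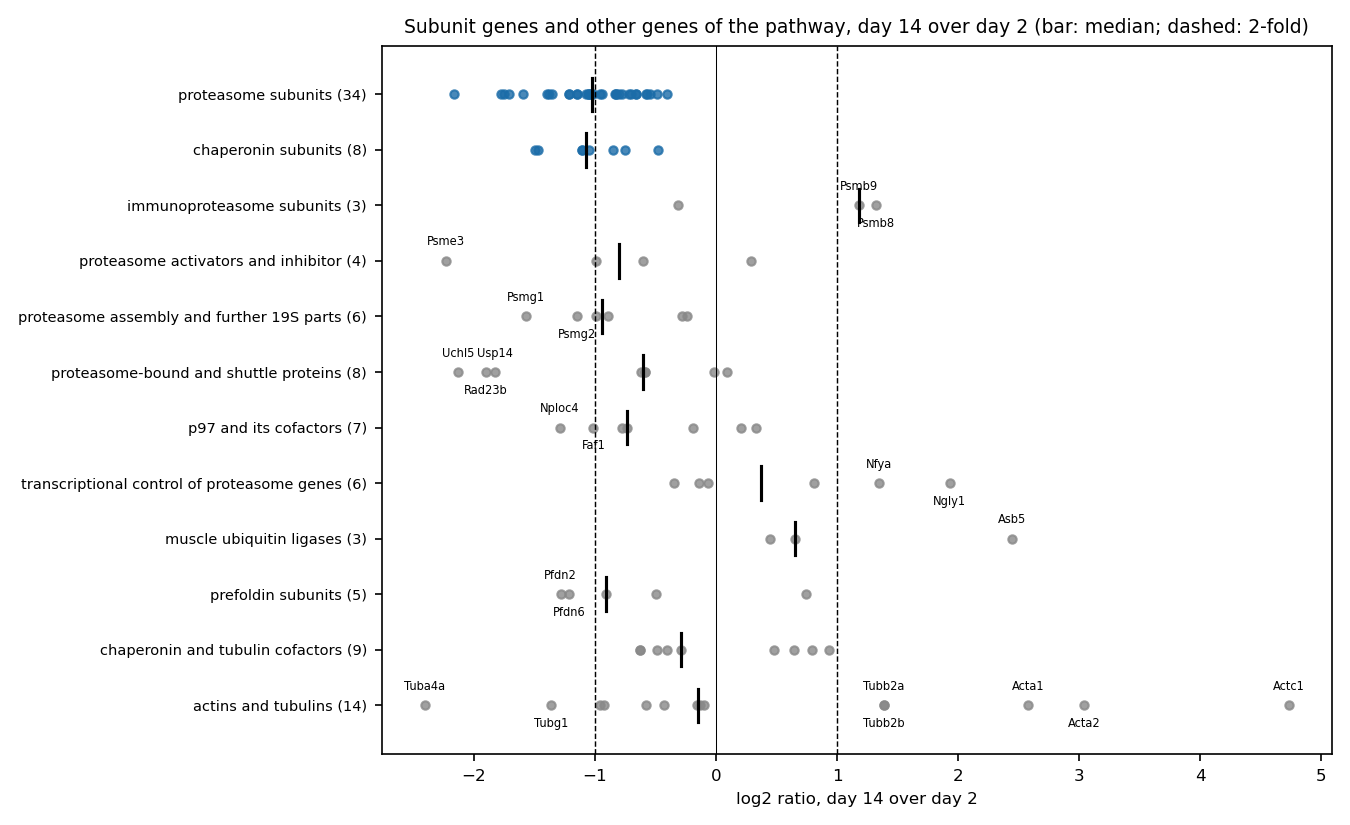
Log2 ratio of day 14 over day 2 for the proteasome and chaperonin subunits (top rows) and for 10 lists of related genes; each point is 1 measured gene, the bars are medians, and genes past the dashed 2-fold lines are named in the lists. The medians are -1.02 for the proteasome, -1.08 for the chaperonin and 1.18 for the immunoproteasome, whose Psmb8 and Psmb9 are bounds.

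Prefoldin hands unfolded actin and tubulin to the chaperonin. Of its 5 measured subunits 2 fell on day 14 against day 2, where 14.8% of all genes did. Pfdn2 had 909, 617, 374 and 374 units on days 2, 3, 5 and 14 (2.43-fold lower), and Pfdn6 had 1623, 999.7, 559.9 and 701 units (2.32-fold lower). Pfdn5 had 401, 424, 673 and 671 units, 1.67-fold higher on day 14 than on day 2. Of 9 chaperonin and tubulin cofactors none changed by 2-fold between these days, and their median was -0.29.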

How the data were processed

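RNA of the 4 samples was hybridised to Affymetrix mouse 430A arrays, 1 array per day after injury. The authors deposited 1 signal intensity, not logged, for each probe set of an array, made with MAS5 per the submitters' processing notes; its settings and any scaling target are unknown. Of 22690 probe sets, 21084 are annotated in the platform table, 20393 with 1 gene symbol, 691 with several and 1606 with none; the 20393 name 12394 genes. Arrays were brought to one 2% trimmed mean (factors 0.997, 1.13, 0.917 and 0.976 for days 2, 3, 5 and 14), values under the pooled median (43.0) were set to it, and log2 differences were taken; a gene was measured in a comparison if above the floor on either array. A gene is represented by its probe set of highest mean log2 signal. A call is a 2-fold difference; no test was made. All members are named; full values are given for the largest and smallest fall of each group, the active-site subunits and Tcp1, and for related genes called at 2-fold (other values were chosen after they were seen). The 11 related lists hold genes such as the ubiquitin genes that no probe set with 1 symbol reads; these are not analysed here. Members and lists were chosen with earlier results of these data known. The number of arrays limits the precision, and no depth applies. The calculation was tested on simulated data. Python 3.11.15, pandas 2.3.3, numpy 2.4.6 and matplotlib 3.10.9 were used. Scaling, floor, pseudocount and choice of probe set were varied.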

Additional observations from a re-analysis of the deposited data

How the results depend on the processing

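Under 8 alternatives the median log2 ratio of the proteasome and of the chaperonin subunits was below 0 in each of the 4 comparisons. For day 14 against day 2 it was between -1.86 and -0.88 in the proteasome and between -1.92 and -0.95 in the chaperonin, and all 42 genes were below 0 in 7 alternatives. With probe sets of the suffixes _s_at, _x_at and _a_at left out, 29 of 30 were, Psmb1 being at 0.26, and 3 of 5 chaperonin genes fell. Scaling to a common median put the proteasome median at -0.68 (day 3 against day 2) and -1.86 (day 14 against day 2), and the chaperonin median at -0.78 and -1.92; the falling genes were 2, 9 and 34 in the proteasome and 1, 4 and 8 in the chaperonin for days 3 over 2, 5 over 3 and 14 over 2. On the values as deposited the medians for day 5 against day 3 were -0.19 in the proteasome and -0.44 in the chaperonin. A common median also moved the all-gene median for day 14 against day 2 to -0.57, against 0.20, and 36.0% of all genes then fell. Of all calls in that comparison, 76.5% were then lower, against 39.3%, and 48.2% after quantile normalization. For day 3 against day 2 the lower share was 21.2%, and 79.1% with a common median and 47.4% as deposited; for day 5 against day 3 it was 33.9%, 59.0% and 12.6%; for day 14 against day 5 it was 39.2%, 51.7% and 49.5%. No subunit gene rose by 2-fold under any alternative. The proteasome count for day 3 against day 2 was 0 under quantile normalization and under log2(value + 32), the proteasome count for day 5 against day 3 was 0 on the values as deposited, and the chaperonin count for day 14 against day 2 was 3 under quantile normalization. The cause was not tested. Among genes that had changed by 2-fold, Rad23b changed sign, at 0.037 for day 14 against day 2 with the suffixed probe sets left out. Smaller differences changed sign as well: for day 3 against day 2, 35 of 42 subunit genes were below 0, against 41 on the values as deposited, 42 with a common median and 32 after quantile normalization. No paired analysis was possible because each day has 1 array. For the same reason no array could be left out of its group.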

Other observations

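Actins and tubulins, the main folding clients of the chaperonin, moved in both directions. Of 14 measured genes 2 fell and 5 rose on day 14 against day 2, where 14.8% of all genes fell and 22.8% rose. The sarcomeric actin genes were far higher on day 3 than on day 2: Actc1, the cardiac form used in regenerating muscle, had 56.4 units at day 2, 2251 at day 3, 2227 at day 5 and 1497 at day 14, and Acta1, the adult skeletal form, had 114, 3858, 1318 and 679 units. On day 14 against day 2 Actc1 was 26.5-fold and Acta1 5.97-fold higher. Acta2, the smooth muscle form, had 750.0, 3596, 7744 and 6176 units on days 2, 3, 5 and 14 and was 8.24-fold higher on day 14 than on day 2; it is also a mural cell marker, and the part of such cells was not tested. Of the cytoplasmic actins, Actb had 8672, 8331, 7607 and 7768 units and Actg1 10714, 9883, 8281 and 9769 units on days 2, 3, 5 and 14, without a 2-fold change. The 5 measured probe sets of Actb ran between log2 ratios of -0.41 and 2.76 for day 14 over day 2. Actin genes are close in sequence, and reads of one form by the probe sets of another were not tested.

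Among tubulins, Tuba4a had 5760.5 units at day 2, 5106 at day 3, 817 at day 5 and 1089 at day 14 and fell by 6.25-fold on day 5 against day 3. Tubg1, the gamma-tubulin of microtubule nucleation, had 374, 352, 191 and 146 units and fell by 2.56-fold on day 14 against day 2. Tubb2a (555, 1557, 1545 and 1452 units) and Tubb2b (361, 972, 1347 and 946 units) rose, both by 2.62-fold.

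Of 3 measured muscle ubiquitin ligases 1 rose on day 14 against day 2 and none fell, where 22.8% of all genes rose and 14.8% fell. Asb5 rose by 5.45-fold, with 342, 762, 1661 and 1864 units on days 2, 3, 5 and 14. Trim32 was 1.57-fold higher on day 14 than on day 2. Fbxo32, the atrophy ligase atrogin-1, had its highest signal on day 5, with 45.4, 93.8, 326 and 61.8 units, a 3.48-fold rise on day 5 against day 3 and a 5.28-fold fall on day 14 against day 5.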
